A study of Mus musculus with 18 samples.

Results

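The potassium channel family was taken as every gene of the deposited count table whose symbol starts with Kcn, which gave 79 of 13973 genes. Of these, 65 encode pore-forming subunits, 7 encode the cytosolic subunits of the Kcnab and Kcnip groups, and 5 encode small membrane accessory subunits of the Kcne and Kcnmb groups. The other 2 are Kcnq1ot1, a long noncoding RNA, and Kcnrg, a regulator that is no channel subunit. The pore-forming members comprised 15 voltage-gated Kv alpha genes (Kcna to Kcnd), 9 silent Kv genes (Kcnf, Kcng, Kcns, Kcnv), 7 Kcnh genes (EAG, ERG and related channels), 4 Kcnq genes, 13 inward rectifiers (Kcnj), 10 tandem-pore leak channels (Kcnk) and 7 calcium- or sodium-activated channels (Kcnma, Kcnn, Kcnt, Kcnu). All 79 passed edgeR's filter on low counts, as did all 13973 genes of the table.

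The tissue was hippocampal-cortical slices from C57BL/6N males aged 28 to 35 days, either wild type (WT) or Fmr1 knockout (KO), which spent 30 min in 20 µM homoharringtonine (HHT) or in DMSO vehicle. HHT is a plant alkaloid that blocks ribosomes as they begin translation, while those already elongating can finish and leave. RNA was sequenced from the cleared lysate (input) and from its medium and heavy polysomes, pooled gradient fractions chosen by where the protein FMRP was found. There were 18 libraries: for either genotype and each of the 3 sources, 2 replicates had HHT and 1 had vehicle, which makes 12 groups. A replicate pooled 10 slices from 2 or 3 mice, so its value is not that of 1 animal. In such bulk tissue fewer cells of a type and less RNA per cell cannot be told apart.

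Potassium channels let potassium leave the cell, and in neurons they set the resting potential, shape and end the action potential and limit repetitive firing. Pore-forming subunits span the membrane, are made on ribosomes at the endoplasmic reticulum, and assemble around a selectivity filter that passes potassium and turns sodium away. Kcnab and Kcnip proteins are soluble: the Kcnab (Kv beta) subunits dock under Kcna channels, and the calcium-binding Kcnip (KChIP) proteins bind the intracellular end of Kcnd channels.

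The coding sequences carried this division. In translations of the longest complete coding sequence in GENCODE M21, built on GRCm38 (mm10), a hydrophobic segment was counted where the mean Kyte-Doolittle hydropathy over 19 residues reached 1.6. Such a segment was found in 65 of 65 pore-forming, 5 of 5 membrane accessory and 0 of 7 cytosolic members, against 36.2% of 13039 genes with a matched sequence. Alternate isoforms held a segment for Kcnip3 (1 of 3 isoforms) and Kcnip4 (2 of 5). A filter pattern (threonine or serine, then valine, isoleucine, leucine or alanine, then glycine, then tyrosine, phenylalanine or leucine, then glycine) occurred in 65 of 65 pore-forming members, in 0 of 7 cytosolic and 0 of 5 accessory members, and in 1.84% of all matched genes. The tandem-pore members carried it 2 times in 9 of 10 cases. The stretches below, 45 bases each on the coding strand and 5′ to 3′, show it for members to which the results return, with the 15 filter bases in capitals.
Kcnc1: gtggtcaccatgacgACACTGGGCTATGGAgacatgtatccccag
Kcnma1: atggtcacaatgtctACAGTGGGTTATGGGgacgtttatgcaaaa
Kcnt1: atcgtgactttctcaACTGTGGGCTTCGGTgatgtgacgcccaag
Kcnj4: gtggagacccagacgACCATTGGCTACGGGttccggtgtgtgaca
Kcnh3: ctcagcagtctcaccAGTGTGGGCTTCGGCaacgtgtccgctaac
Kcnk2 (first pore): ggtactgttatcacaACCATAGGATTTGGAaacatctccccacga
Kcnk2 (second pore): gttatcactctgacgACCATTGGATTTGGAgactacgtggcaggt
On mm10 the Kcnc1 stretch lies at chr7:46427958-46428002 on the plus strand, in exon 2 of 4. The Kcnma1 stretch lies at chr14:23528398-23528442 (minus strand, exon 8 of 31) and that of Kcnt1 at chr2:25894352-25894396 (plus strand, exon 11 of 32). Kcnj4 has it at chr15:79485352-79485396 (minus strand, exon 2 of 2) and Kcnh3 at chr15:99232914-99232958 (plus strand, exon 8 of 15). Both Kcnk2 stretches cross an intron, so their ends span more of the genome: chr1:189258876-189295615 for the first pore (minus strand, exons 3 and 4) and chr1:189243025-189256610 for the second (minus strand, exons 5 and 6).

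Library totals ran from 6226237 to 13834652 estimated counts. Fmr1, the targeted gene, lay between 4.62 and 8.53 CPM (counts relative to a library size scaled by TMM) in the 9 KO libraries and between 13.9 and 32.2 CPM in the 9 WT libraries, with no overlap. All 5 pyramidal neuron markers listed, Slc17a7, Neurod6 and Camk2a among them, were detected in every library. The lowest deposited rescaled TPM was 0.7722 to 0.9041 in HHT replicate 2 libraries and 1.004 to 1.043 in all others, so that replicate number stands apart on the HHT side only and results that move with it are given both ways.

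Levels per transcript length in vehicle input were highest for the cytosolic members. Kcnab2, the Kv beta subunit most abundant here, held 568 rescaled TPM in WT and 566 in KO, the highest level of the 79. Kcnip2 came next with 219 in WT and 236 in KO. Kcnmb4, the neuronal beta subunit of the large-conductance calcium-activated channel, held 199.8 and 180.0, a range that Kcnip3 overlapped with 163 and 189.
The pore-forming subunits began below these. Among the highest were Kcnj4 (90.4 in WT, 122 in KO), Kcnc4 (93.9, 107), Kcnh3 (83.9, 94.4), Kcnc1 (73.1, 82.9) and Kcna1 (73.9, 80.6), and neighbours in that order had overlapping ranges except Kcnh3 and Kcnc1. Kcnab1 (127, 119), Kcnab3 (95.3, 89.7) and Kcnip4 (91.7, 85.6) lay among them, and Kcnip1 was the lowest cytosolic member (46.6, 36.4). Median levels over genes were 31.8 rescaled TPM for Kv alpha, 26.7 for Kcnq, 12.7 for silent Kv, 11.9 for calcium- or sodium-activated, 10.2 for tandem-pore, 9.67 for Kir and 7.99 for Kcnh members. The median was 123 for Kcnab, 132 for Kcnip and 2.38 for Kcne. Of the 79 members, 61 averaged at least 5 CPM over the 18 libraries.

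**Figure D1:**
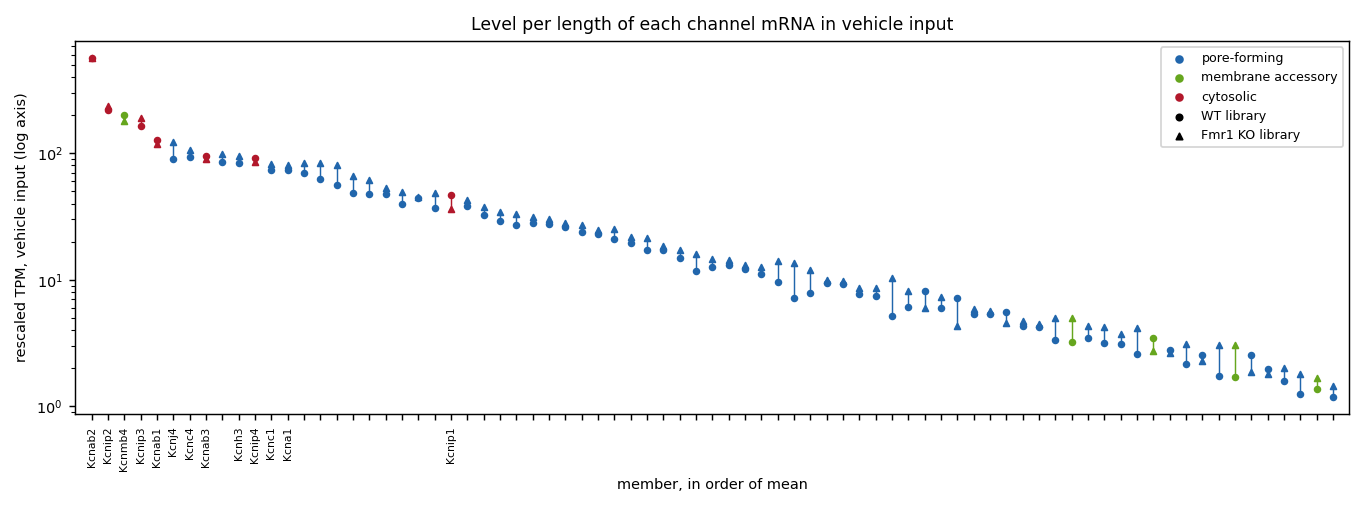
Rescaled TPM (log axis) of 77 channel subunit genes in vehicle input, ordered by their mean and named where the text gives the level; circles are the WT library, triangles the Fmr1 KO library, and colours the class. Kcnab2 stands highest at 566 and 568, and 4 of the 5 highest genes are cytosolic.

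Values in CPM are shares of a library, so a share can rise while the amount of that mRNA in the fraction falls. Rises, falls and fold changes refer to shares throughout, and absolute amounts were not tested. Under HHT the pore-forming mRNAs took a larger share of heavy polysome RNA. Of 65, 54 rose and 0 fell, where 27.1% of all 13973 genes rose and 24.7% fell (edgeR quasi-likelihood test, Benjamini-Hochberg adjusted p under 0.05 over all genes). Their median log2 change was 1.31, against 0.06 for all genes and 0.68 for all genes with a hydrophobic segment, of which 53.1% rose. In those 54 every HHT value exceeded every vehicle value, and in 1 other member the order was the reverse. The share of all genes with such separation is not given, so it is not shown to be particular to channels. Of the 11 that did not pass, 10 averaged under 5 CPM and the other was Kcnj16 with 8.34 CPM.

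The Kv alpha genes, which carry the voltage-gated outward currents of axon and dendrite, rose in 14 of 15 (median 1.604). Kcnc1 encodes the fast delayed rectifier of fast-spiking cells. In heavy polysomes it held 120.2 CPM in WT vehicle and 168 in KO vehicle, against 662 and 592 in WT HHT and 687 and 656 in KO HHT. The HHT libraries stood together far above both vehicle libraries, a 4.57-fold change (log2 2.19 ± 0.21 SE, adjusted p = 4.96e-06). Kcnd3, an A-type channel subunit, held 43.7 CPM in WT vehicle and 51.8 in KO vehicle, and 186 and 183 in WT HHT and 196 and 182 in KO HHT (log2 1.97 ± 0.24, adjusted p = 2.08e-05). Its dendritic relative Kcnd2 held 54.3 and 69.3 CPM in vehicle, and 181 and 195 in WT HHT and 195 and 175 in KO HHT (1.604 ± 0.196, adjusted p = 2.25e-05). In neither gene did the treatments overlap.

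Among Kcnq genes, which carry the M current that restrains repetitive firing, 3 of 4 rose (median 1.71). Kcnq5 held 37.3 CPM in WT vehicle and 46.1 in KO vehicle, and 156 and 151 in WT HHT and 177 and 172 in KO HHT (1.98 ± 0.22, adjusted p = 1.38e-05). Its 4 HHT values lay close together and clear of vehicle. Kcnh members rose in 6 of 7 (median 1.63). Of these Kcnh5, a low gene of the EAG group, went from 5.54 and 4.25 CPM in WT and KO vehicle to 16.3 and 15.1 in WT HHT and 23.8 and 19.2 in KO HHT (1.92 ± 0.29, adjusted p = 9.12e-05).

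Calcium- or sodium-activated channels rose in 6 of 7 (median 1.275). Kcnma1, the large-conductance calcium-activated channel that speeds spike repolarisation, held 32.3 CPM in WT vehicle and 42.9 in KO vehicle, and 172 and 149 in WT HHT and 211 and 205 in KO HHT. Every HHT value exceeded every vehicle value, for a change between treatments of 2.30 ± 0.37 (adjusted p = 0.000152). Within each treatment the KO values stood above the WT values, but the genotype difference under HHT did not pass the edgeR test. Kcnt1, the sodium-activated channel, held 29.0 and 31.05 CPM in WT and KO vehicle, and 117 and 123 in WT HHT and 107 and 111 in KO HHT (1.93 ± 0.21, adjusted p = 1.15e-05). Silent Kv genes, which modify Kv channels but form none alone, rose in 9 of 9 with a lower median of 1.00. Tandem-pore genes rose in 8 of 10 (median 1.30) and Kir genes in 8 of 13 (median 1.098). Kcnj4, a strong inward rectifier of forebrain neurons, held 50.4 and 57.3 CPM in WT and KO vehicle, and 224 and 189.7 in WT HHT and 214 and 169 in KO HHT (1.89 ± 0.20, adjusted p = 1.08e-05). Its HHT and vehicle ranges did not overlap either.

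**Figure D2:**
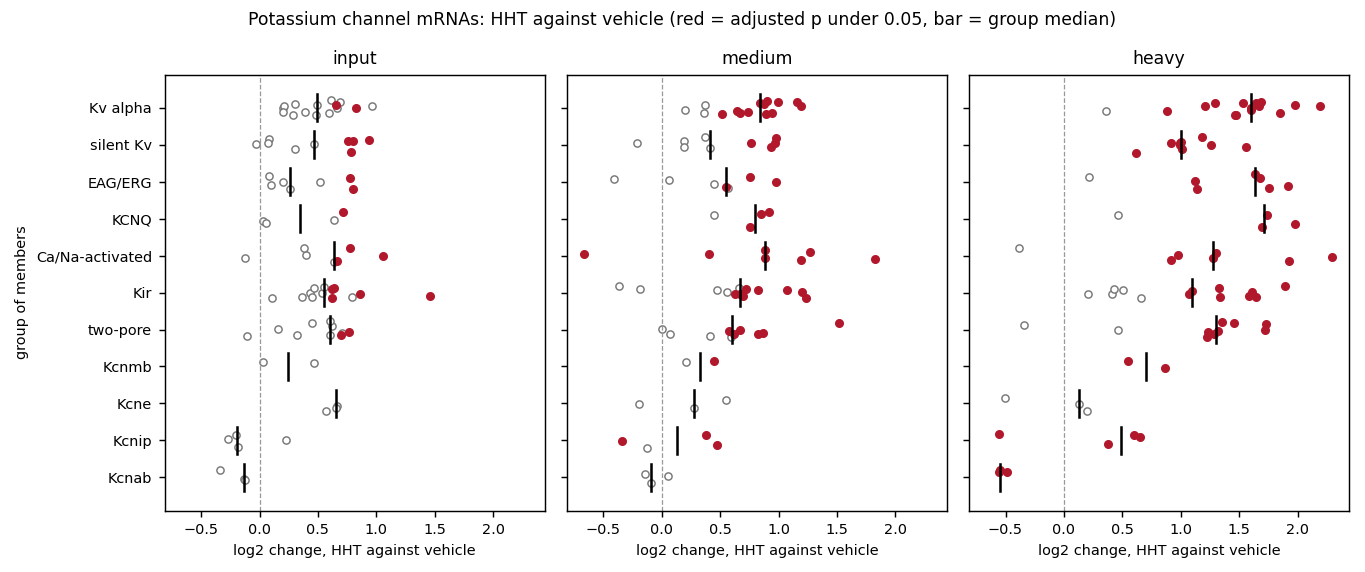
Log2 change of HHT against vehicle for 77 subunit genes in input, medium and heavy libraries, 1 point per gene, filled red where the adjusted p passed 0.05; black bars are group medians. In heavy the 7 pore-forming groups have medians from 1.00 to 1.71, while the Kcnab genes lie between -0.56 and -0.48.

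The cytosolic members did not move as one group in heavy polysomes. All 3 Kcnab genes fell and 3 of 4 Kcnip genes rose, with Kcnip4 the exception that fell. Kcnab2 held 1299 CPM in WT vehicle and 1213 in KO vehicle, and 875 and 896 in WT HHT and 859 and 958 in KO HHT (-0.48 ± 0.10, adjusted p = 0.00127). Kcnab1 held 165 CPM in both vehicle libraries, and 111 and 116 in WT HHT and 110.2 and 114 in KO HHT (-0.55 ± 0.10, adjusted p = 0.000422). Every HHT library was lower than every vehicle library in both genes. Kcnab3 held 116 and 106 CPM in WT and KO vehicle, and 66.7 and 88.9 in WT HHT and 77.6 and 68.8 in KO HHT (-0.56 ± 0.16, adjusted p = 0.00862). Its call was lost in limma. Fitted within 1 genotype, where vehicle is a single library, the calls of Kcnab3 and Kcnip3 were lost in both, that of Kcnip4 in WT and that of Kcnip1 in KO.

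The 3 Kcnip rises lay below the values of 1.604 for Kcnd2 and 1.97 for Kcnd3, channels these proteins bind, a gap that was not tested. Kcnip2 held 122 CPM in WT vehicle and 109 in KO vehicle, and 189 and 170.5 in WT HHT and 180.4 and 187 in KO HHT (0.65 ± 0.11, adjusted p = 0.000238). Kcnip1 held 17.35 and 15.96 CPM in WT and KO vehicle, and 26.8 and 30.1 in WT HHT and 26.5 and 18.5 in KO HHT (0.60 ± 0.16, adjusted p = 0.00685), so that 1 KO library came close to vehicle. With HHT replicate 2 alone its call was lost. Kcnip3, also known as a calcium-dependent repressor of transcription, held 140.3 and 139.6 CPM in vehicle, and 178 and 185 in WT HHT and 173 and 192 in KO HHT (0.38 ± 0.11, adjusted p = 0.00976). That call did not pass with RLE size factors or in DESeq2. Kcnip4 held 47.4 and 54.3 CPM in WT and KO vehicle, and 30.3 and 40.5 in WT HHT and 35.1 and 32.2 in KO HHT (-0.56 ± 0.15, adjusted p = 0.00669), a call lost in limma. All 7 genes had HHT and vehicle libraries that did not overlap, but the share of all genes with such separation is not given. The median of the pore-forming changes exceeded that of the cytosolic changes by 1.79 ± 0.19 (SD over 4 HHT lysates, each against the vehicle mean, range 1.51 to 1.96). The cytosolic median was the value of Kcnab2, the smallest of the falls, so it does not describe the 3 Kcnip genes that rose. This SD, and those given later for the same gap, leave out the spread of the vehicle libraries.

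**Figure D3:**
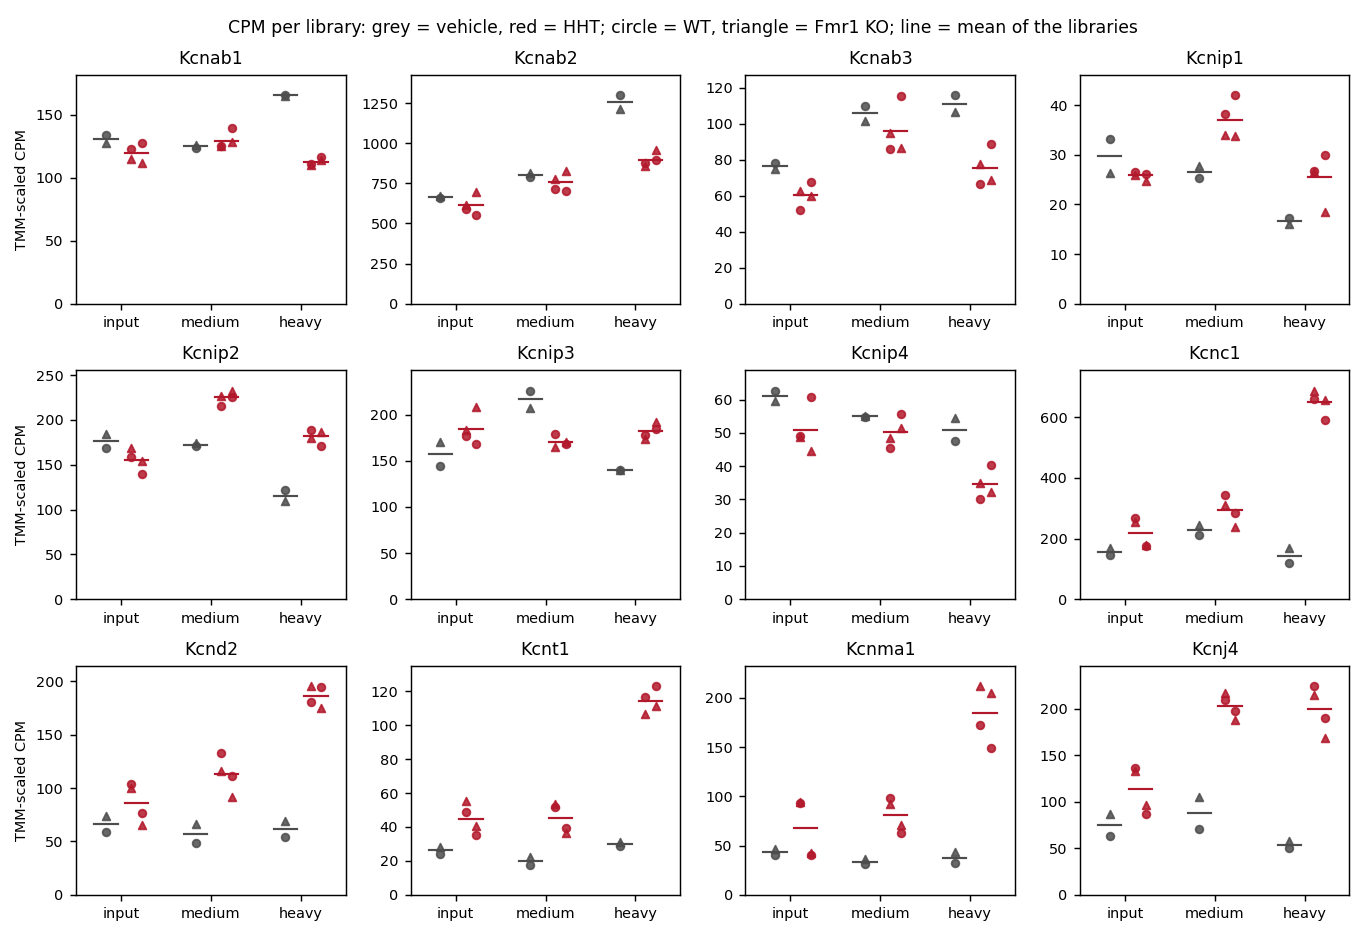
CPM (TMM-scaled) of the 7 cytosolic members and 5 pore-forming members in each of the 18 libraries, by fraction; grey is vehicle, red is HHT, circles are WT, triangles are Fmr1 KO, and lines are means. In heavy, Kcnc1 goes from 120.2 and 168 CPM in vehicle to 592 or more under HHT, while Kcnab2 goes from 1213 or more to 958 or less.

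Of the membrane accessory members, 2 of 5 rose in heavy, both Kcnmb genes. Kcnmb4 held 28.6 CPM in WT vehicle and 30.5 in KO vehicle, and 48.8 and 38.8 in WT HHT and 45.6 and 39.7 in KO HHT (0.55 ± 0.15, adjusted p = 0.00706). Its pore-forming partner Kcnma1 changed by 2.30 in the same libraries. Kcnmb2, which inactivates that channel, averaged 1.86 CPM in vehicle and 3.44 under HHT (0.86 ± 0.30, adjusted p = 0.0275). This call was lost without WT HHT replicate 1, without KO HHT replicate 2, with RLE size factors and in DESeq2. The Kcne genes, single-span modulators of Kcnq and other channels, averaged 2.62 CPM or less and none passed: Kcne1l changed by 0.20 ± 0.38, Kcne4 by 0.13 ± 0.37 and Kcne2 by -0.50 ± 0.48.

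In medium polysomes most pore-forming mRNAs rose too, while the Kcnab genes did not pass. With HHT 42 of 65 pore-forming mRNAs rose and 1 fell (all genes: 25.4% rose and 21.5% fell), with a median of 0.67 against 0.03 for all genes and 0.50 for all with a hydrophobic segment. Kcnt2, a sodium-activated channel, held 3.30 and 3.75 CPM in WT and KO vehicle, and 15.1 and 11.1 in WT HHT and 13.7 and 10.3 in KO HHT (1.83 ± 0.31, adjusted p = 0.000481). Every HHT value was above every vehicle value. The other large rises were Kcnk9, an acid-sensitive leak channel (1.52 ± 0.38, adjusted p = 0.00503), Kcnma1 (1.27 ± 0.35, adjusted p = 0.00902), Kcnj4 (1.23 ± 0.19, adjusted p = 0.000294), Kcnj2, the founding strong inward rectifier (1.201 ± 0.204, adjusted p = 0.000463), and Kcnt1 (1.19 ± 0.21, adjusted p = 0.000567). Kcnc1, so high in heavy, held 212 and 243 CPM in WT and KO vehicle, and 342 and 283 in WT HHT and 312 and 237 in KO HHT. Those values overlapped, and the change of 0.37 ± 0.19 did not pass (adjusted p = 0.128). The 1 pore-forming member that fell was Kcnu1, a testis-associated relative of Kcnma1 that is low here and is named after its values were seen (-0.66 ± 0.22, adjusted p = 0.0236).

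Of the Kcnab genes in medium, Kcnab1 changed by 0.05 ± 0.10, Kcnab2 by -0.09 ± 0.10 and Kcnab3 by -0.14 ± 0.16. Kcnip2 held 171 and 174 CPM in WT and KO vehicle, and 215 and 226 in WT HHT and 227 and 232 in KO HHT (0.38 ± 0.11, adjusted p = 0.0103). Kcnip1 held 25.3 and 27.7 CPM in vehicle, and 38.3 and 42.0 in WT HHT and 34.0 and 33.7 in KO HHT (0.48 ± 0.15, adjusted p = 0.0187). Both rose with no overlap, but the Kcnip1 call was lost without WT HHT replicate 2 and under total counts. Kcnip3 went the other way, from 226 and 208 CPM in WT and KO vehicle to 179 and 168 in WT HHT and 165 and 171 in KO HHT (-0.34 ± 0.11, adjusted p = 0.0158). It too lost its call without WT HHT replicate 2. Kcnip4 changed by -0.13 ± 0.15. Kcnmb4 was the 1 accessory member past the test (0.45 ± 0.14, adjusted p = 0.019), and its call was lost without WT HHT replicate 2, without KO HHT replicate 1 and under total counts. The medians of pore-forming and cytosolic changes differed by 0.77 ± 0.25 (SD over 4 lysates). The gap was 0.946 in WT and 0.867 in KO HHT replicate 1, against 0.414 and 0.557 in replicate 2.

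In input, the lysate before the gradient, 19 of 65 pore-forming members rose and 0 fell, where 12.2% of all genes rose and 0.215% fell. Their median change was 0.53, against -0.00 for all genes and 0.39 for all genes with a hydrophobic segment, of which 32% rose. Of the 7 cytosolic members 0 passed (median -0.18, 1 with an unadjusted p under 0.05), and 0 of the 5 accessory members passed (median 0.57). The 2 medians of pore-forming and cytosolic members differed by 0.71 ± 0.22 (SD over 4 lysates), with 0.811 in WT and 0.861 in KO HHT replicate 1 against 0.397 and 0.519 in replicate 2.
Kcnt2 held 7.13 and 5.92 CPM in WT and KO vehicle, and 15.6 and 12.98 in WT HHT and 16.5 and 8.82 in KO HHT (1.05 ± 0.27, adjusted p = 0.0176). Kcnj16, an inward rectifier of glia, held 6.34 and 6.85 CPM in vehicle, and 10.8 and 14.4 in WT HHT and 11.3 and 11.7 in KO HHT (0.86 ± 0.23, adjusted p = 0.0262). HHT and vehicle did not overlap in either gene. Other large rises were those of the silent subunits Kcng1 (0.94 ± 0.26, adjusted p = 0.0274) and Kcnf1 (0.80 ± 0.18, adjusted p = 0.00948) and of the ERG channel Kcnh2 (0.80 ± 0.23, adjusted p = 0.0314). Without KO HHT replicate 1 all 5 of these calls were lost, without KO HHT replicate 2 those of Kcng1 and Kcnj16, and without WT HHT replicate 1 those of Kcnt2 and Kcnh2.
The input rises rested largely on 1 replicate number. Of the 65 pore-forming members, 51 were higher in HHT replicate 1 than in replicate 2 in both genotypes, against 4 lower in both. Shares over all genes are not given for this split or for the counts by replicate and lysate that follow. The lean is therefore not shown to be particular to channels. Kcnma1 shows it: 93.35 and 94.0 CPM in WT and KO replicate 1, 40.3 and 42.0 in replicate 2, and 40.4 and 46.7 in WT and KO vehicle, so that 1 replicate 2 value lay inside the vehicle range and the other just under it (0.64 ± 0.33, adjusted p = 0.307). With HHT replicate 1 alone 48 pore-forming members rose, with replicate 2 alone 7, without KO HHT replicate 1 there was 1, without WT HHT replicate 1 there were 8, and without WT HHT replicate 2 there were 28. The other fractions leaned to replicate 1 as well: 44 pore-forming members were higher there in both genotypes in medium against 2 lower, and 30 against 6 in heavy. In medium 50 rose with replicate 1 alone and 36 with replicate 2 alone, and in heavy 56 and 54.

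Cell type markers were counted beside the shares of all genes that rose with HHT (12.2% in input, 27.1% in heavy) and fell (0.215%, 24.7%). In input, astrocyte markers rose in 3 of 6, with a summed level of 1631 to 2283 CPM under HHT and 1105 to 1371 in vehicle. Microglial markers rose in 4 of 6 (131 to 153 CPM against 61.4 to 88.4), vessel markers in 4 of 6 (48.4 to 61.9 against 24.6 to 25.9), and both precursor markers rose (51.6 to 84.2 against 23.3 to 28.2). Choroid plexus markers rose in 3 of 4 (186 to 299 CPM against 90.5 to 142), oligodendrocyte markers in 2 of 6 (3585 to 4177 against 3100.5 to 3314), inhibitory neuron markers in 3 of 6 (803 to 929 against 761 to 767), and thalamus and striatum markers in 1 of 6 (166 to 219.6 against 176 to 179.5). Of 2 blood markers measured 0 passed, and no marker of any list fell in input. Of the pyramidal markers 1 of 5 rose, and their sums overlapped (4706 to 6998.5 CPM against 5024 to 5526). In heavy, pyramidal markers fell in 3 of 5 and rose in 1, with sums of 6242 to 7234 CPM under HHT and 9336 to 10002 in vehicle. Astrocyte markers rose in 4 of 6 and fell in 2 there (2284 to 3305 CPM against 1182 to 1359), and 0 of 6 microglial markers passed (45.8 to 67.7 against 60.5 to 61.1). No marker measured in these lists was at 0, and their part in the changes of channel mRNAs was not tested.

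The ratio of heavy to input sets an mRNA's share of heavy polysome RNA against its share of the lysate. In vehicle slices the Kcnab mRNAs stood out: 3 of 3 had a ratio above 0 past the test, while 0 of 65 pore-forming members were higher and 6 were lower in heavy than in input (all genes: 24.8% higher and 21.7% lower). The split of pore-forming calls depended on scaling: 1 higher and 2 lower with RLE, and 0 higher and 28 lower with total counts, where the median of all genes itself was -0.41. Kcnab2 went from 660.2 CPM in input to 1299 in heavy in WT and from 669.7 to 1213 in KO (0.92 ± 0.12, adjusted p = 8.07e-05). Kcnab3 (0.54 ± 0.18, adjusted p = 0.027) and Kcnab1 (0.34 ± 0.12, adjusted p = 0.0304) were higher in heavy under TMM scaling, but under total counts neither passed and Kcnab1 turned to -0.05. Both calls were also lost in the fit without KO HHT replicate 1 or 2. The other soluble group was lower in heavy: Kcnip1 by -0.83 ± 0.18 (adjusted p = 0.00214) and Kcnip2 by -0.61 ± 0.12 (adjusted p = 0.00141), while Kcnip3 and Kcnip4 did not pass.
Among pore-forming members past the test the largest falls from input to heavy were those of Kcnk2, a stretch- and lipid-sensitive leak channel (-0.89 ± 0.15, adjusted p = 0.000468), Kcns3 (-0.78 ± 0.29, adjusted p = 0.0403), Kcnq5 (-0.69 ± 0.24, adjusted p = 0.0303) and Kcna1 (-0.61 ± 0.19, adjusted p = 0.0171). Kcnk2 held 48.7 and 50.7 CPM in WT and KO vehicle input and 24.9 and 28.7 in heavy, without overlap. The calls of Kcns3 and Kcnq5 were lost with RLE, and that of Kcns3 also in DESeq2 and without KO HHT replicate 1 or 2. Kcnmb4 had the lowest ratio of the 79, from 64.8 and 59.4 CPM in WT and KO input to 28.6 and 30.5 in heavy (-1.07 ± 0.17, adjusted p = 0.000221). Of the accessory genes it was the 1 that passed.

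Under HHT the order changed. Of the pore-forming members 43 of 65 were higher in heavy than in input and 4 were lower (all genes: 27.6% higher and 30.4% lower), with a median of 0.66 against -0.04 for all genes. With total counts the split was 35 higher and 7 lower, at a median over all genes of -0.28. The largest were Kcnc1 (1.57 ± 0.15, adjusted p = 4.18e-06), Kcnma1 (1.43 ± 0.26, adjusted p = 0.000457), Kcna6, an axonal Kv channel (1.41 ± 0.14, adjusted p = 5.84e-06), and Kcnk9 (1.399 ± 0.246, adjusted p = 0.000321). The Kcnh genes were higher in 6 of 7, Kcnq genes in 4 of 4 and Kv alpha genes in 13 of 15, but Kir genes in 5 of 13 with 3 lower.
Kcnj16 was the member with at least 5 CPM that fell furthest from input to heavy. Its WT HHT lysates held 10.8 and 14.4 CPM in input but 8.69 and 4.34 in heavy, and its KO HHT lysates 11.3 and 11.7 in input but 7.18 and 7.605 in heavy (-0.81 ± 0.19, adjusted p = 0.00254). All heavy libraries were below all input libraries. Kcne2 (-1.19 ± 0.31, adjusted p = 0.00467) and Kcne1l (-0.60 ± 0.23, adjusted p = 0.0418) were also lower in heavy at means under 3 CPM. The Kcne2 call was lost without WT HHT replicate 1 or KO HHT replicate 2, and the Kcne1l call in DESeq2, with RLE and without any of 3 of the 4 HHT lysates. Kcne2 is known from the choroid plexus. Markers of that tissue were lower in heavy in 3 of 4 and higher in 1 (70.2 to 118 CPM against 186 to 299), and their part was not tested.
Kcnmb4 was again lower (-0.55 ± 0.11, adjusted p = 0.000977). Of the cytosolic members Kcnab2 was higher in heavy (0.55 ± 0.08, adjusted p = 0.00012) and Kcnip4 lower (-0.55 ± 0.12, adjusted p = 0.00173). Kcnab3 (0.32 ± 0.13, adjusted p = 0.0467) and Kcnip2 (0.22 ± 0.09, adjusted p = 0.0394) passed narrowly. Both lost the call under total counts, where Kcnip2 turned to -0.01. The Kcnip2 call was also lost when any 1 HHT lysate was left out, and the Kcnab3 call without WT HHT replicate 2 or either KO HHT replicate. Kcnab1 changed by -0.08 ± 0.08, Kcnip1 by -0.03 ± 0.12 and Kcnip3 by -0.01 ± 0.09.

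**Figure D4:**
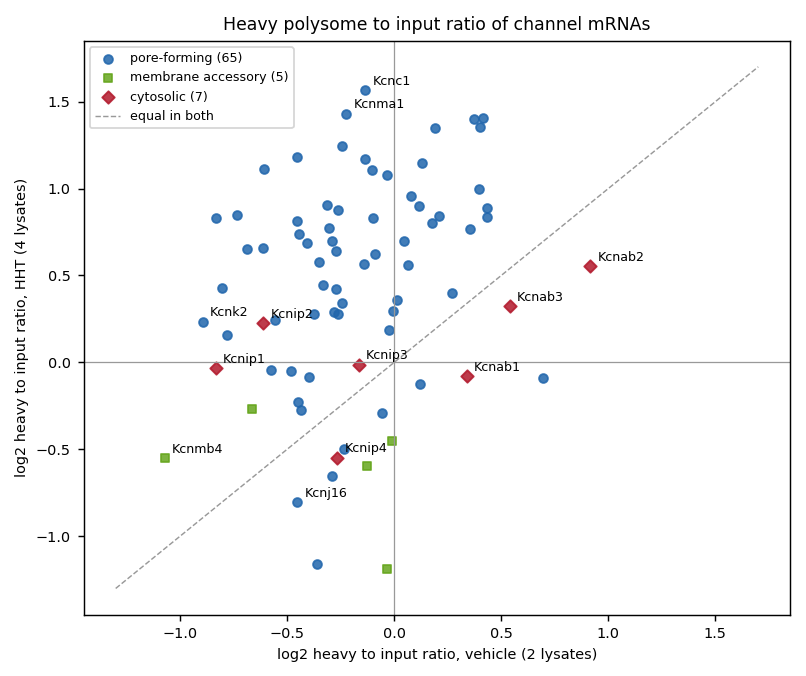
Log2 ratio of heavy to input for 77 subunit genes, vehicle on the x axis (2 lysates) and HHT on the y axis (4 lysates), coloured by class, with the diagonal of equal ratios. Kcnc1 sits at -0.13 in vehicle and 1.57 under HHT, while the 3 Kcnab genes lie below the diagonal.

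The difference of the 2 ratios was tested as 1 contrast. The HHT ratio exceeded the vehicle ratio in 29 of 65 pore-forming members and was lower in 0 (all genes: 12.6% higher and 16.3% lower), with a median of 0.78 against 0.01 for all genes. Kcnh5 (1.72 ± 0.38, adjusted p = 0.0049), Kcnc1 (log2 1.7 ± 0.27, adjusted p = 0.000624), Kcnq3, an M channel subunit (1.66 ± 0.45, adjusted p = 0.0143), and Kcnma1 (1.65 ± 0.47, adjusted p = 0.0189) led. Kcnip2 (0.84 ± 0.15, adjusted p = 0.00153) and Kcnip1 (0.80 ± 0.22, adjusted p = 0.0149) rose with them. Kcnip1 lost its call without WT HHT replicate 2. Kcnab1 fell (-0.42 ± 0.14, adjusted p = 0.044), a call lost when any 1 HHT lysate was left out and under total counts, and Kcnab2 did not pass (-0.36 ± 0.15, adjusted p = 0.081). With WT slices alone 9 pore-forming members passed, and with KO slices alone 12.

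Medium to input ratios moved less. Under HHT 16 of 65 pore-forming members were higher in medium and 0 were lower (all genes: 13.4% and 17%), led by Kcnj4 (0.84 ± 0.15, adjusted p = 0.00137), the ATP-sensitive pore Kcnj11 (0.73 ± 0.12, adjusted p = 0.00108), Kcnh2 (0.66 ± 0.17, adjusted p = 0.0117) and Kcnf1 (0.65 ± 0.14, adjusted p = 0.00452). The Kcnh2 and Kcnf1 calls were lost without KO HHT replicate 2, and without it 6 of the 79 members passed against 20 with all lysates. Without WT HHT replicate 2 there were 9. Of the 7 cytosolic members 4 were higher: Kcnab3 (0.67 ± 0.13, adjusted p = 0.00236), Kcnip2 (0.53 ± 0.09, adjusted p = 0.000832), Kcnip1 (0.51 ± 0.12, adjusted p = 0.00607) and Kcnab2 (0.30 ± 0.09, adjusted p = 0.0171). The Kcnab2 call was lost when any 1 HHT lysate was left out, and the Kcnip1 call without WT HHT replicate 2. The numbers pair fractions of a lysate, and with a replicate block 32 members passed.
In vehicle, 2 of 65 pore-forming members were higher in medium, Kcng4 (0.62 ± 0.17, adjusted p = 0.0236) and Kcnc4 (0.57 ± 0.14, adjusted p = 0.0154), and 0 were lower (all genes: 10.2% and 9.5%). Kcnip3 was the 1 cytosolic member past the test (0.46 ± 0.12, adjusted p = 0.0205). The Kcng4 call was lost in DESeq2 and without KO HHT replicate 1 or 2. With a replicate block 12 members passed in vehicle, 10 higher and 2 lower, and leaving out 1 WT HHT lysate, whichever it was, gave 6.
For the difference between the 2 medium ratios, 0 of 65 pore-forming members passed (all genes: 7.09% higher and 10.2% lower), whereas 3 of 4 Kcnip genes did: Kcnip1 (0.67 ± 0.21, adjusted p = 0.041) and Kcnip2 (0.56 ± 0.15, adjusted p = 0.0218) were higher under HHT and Kcnip3 was lower (-0.57 ± 0.15, adjusted p = 0.0205). Each of these 3 calls was lost when replicate 2 of either genotype was left out of the HHT side. With a replicate block 5 members passed.

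Coding length ran from 939 to 3726 bases within the pore-forming class. In heavy the 22 longest members (1962 bases or more) had a median HHT change of 1.62 with 19 rises, the 21 in between a median of 1.32 with 19 rises, and the 22 shortest (1440 bases or less) a median of 1.204 with 16 rises. Across the 65 genes, which share libraries and depth, Spearman's rho between coding length and change was 0.30 in heavy and -0.01 in input, as a description. The cytosolic members were shorter, with a median of 852 bases against 1584. All 4 Kcnip sequences (681 to 852 bases) were below the shortest pore-forming one, while the Kcnab median of 1203 was near the Kir median of 1272. The part of length in the changes was not tested.

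Of the members, Kcnd2, Kcnc1, Kcnt1, Kcnmb4 and Kcnma1 were listed as mRNA targets or protein partners of FMRP, the RNA-binding protein that Fmr1 encodes. In heavy 5 of 5 rose with HHT (median 1.93), in medium 4 of 5 and in input 1 of 5, which was Kcnt1 (0.77 ± 0.20, adjusted p = 0.0196). Kcnt1 lost that input call without WT HHT replicate 1 or KO HHT replicate 1. All of the list but Kcnmb4 are pore-forming, a class in which most members rose in heavy and in medium. The counts are therefore not shown to be particular to FMRP-linked genes. Channel partners without the Kcn prefix were counted beside the shares of all genes that rose (12.2% in input, 25.4% in medium, 27.1% in heavy) and fell (0.215%, 21.5%, 24.7%). Of 14 membrane partners measured, 8 rose in input, 11 in medium and 12 in heavy, and 0 fell. Dpp6, which joins Kcnd channels beside the Kcnip proteins, rose by 2.07 ± 0.26 in heavy (adjusted p = 2.52e-05). Its rise was 1.47 ± 0.25 in input (adjusted p = 0.00222). Of 9 cytosolic partners 0 passed in input, 2 rose and 5 fell in medium, and 2 rose and 1 fell in heavy. Of the 4 soluble beta subunits of calcium channels, the counterpart of the Kcnab group in another channel family, 0 passed in input or medium, and 2 rose and 1 fell in heavy.

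No member passed the test between KO and WT under HHT in input, medium or heavy (0 of 79 each, and 0% of all 13973 genes in each fraction, edgeR). DESeq2 called 0 members as well. With a replicate block Kcnma1, Kcnt2 and Kcnj6 passed in heavy, but equal WT and KO numbers are not said to share anything. At an unadjusted p under 0.05 there were 2 in input (Kcns3 and Kcna5), 2 in medium (Kcnmb2 and Kcnk4) and 3 in heavy (Kcnt2, Kcnj6 and Kcng3), named after their values were seen. The FMRP-linked genes gave changes in heavy of 0.37 ± 0.36 for Kcnma1, 0.10 ± 0.21 for Kcnc1, -0.02 ± 0.20 for Kcnd2, -0.04 ± 0.16 for Kcnmb4 and -0.14 ± 0.21 for Kcnt1. With 2 lysates a side the median SE of a member was 0.225 in heavy, and the largest difference there, 0.83 in size, did not pass either (lowest adjusted p of a member 1.00). Whether the HHT change depended on genotype was tested as an interaction, and 0 members and 0 of all 13973 genes passed in any fraction. That test has 1 vehicle library per genotype, and its SE in heavy was 0.675 for Kcnma1 and 0.374 for Kcnc1. It cannot show that the change was the same in both genotypes. Of the remaining members, Kcnq1ot1 held 27.7 to 33.0 CPM across the 18 libraries and passed in none of the 3 comparisons of HHT with vehicle. It lies antisense to Kcnq1, and as no source used here states the strand setting of the counting, its value is uncertain. Kcnrg held 2.15 CPM or less.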

How the data were processed

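Polysome RNA-seq of 18 libraries was analysed from 2 tables. The submitters' processing notes name RSEM 1.2.11, DESeq2 1.16.1, Bowtie2 2.1.0 and Trimmomatic 0.32, and the build mm10, without their roles. The authors deposited estimated counts (expected counts), of which 0 of 251514 were whole within 1e-06. They also deposited a score they call TPM. In 10 of its 18 columns the sum exceeds what TPM allows, hence the name rescaled TPM. Gene selection and any batch adjustment are not stated in the sources used here. If the counts were adjusted before deposit, the p-values do not take that into account. Estimated counts divide reads between related genes, so close paralogs are less certain.

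Counts were rounded and fitted with edgeR 4.0.16 (R 4.3.3) by the quasi-likelihood F-test with TMM scaling as 12 group means over 18 libraries, leaving 6 residual degrees of freedom. The lone library of each vehicle group is taken to spread as the HHT groups do. Genotypes were weighed equally, and p-values, all 2-sided, were adjusted by Benjamini-Hochberg over 13973 genes within each of 15 comparisons. They rest on the spread between replicate HHT pools of slices. Fractions of the same lysate were fitted as independent libraries, so the p-values of ratios ignore that pairing. The fit was tested on simulated data. The longest complete coding sequences came from GENCODE M21, with 78 of 79 members matched.

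Members, lists and tests were chosen with earlier results of these data known. Genes named are all cytosolic and accessory members, the FMRP-linked list, the 6 most abundant pore-forming members, the 6 largest rises and falls per comparison of HHT with vehicle and the 4 per ratio, each past 0.05 and averaging 5 CPM or more; others are said to be named after their values were seen. Some items that this rule covers are not reported here. Alternatives were RLE factors, total counts, no filter, DESeq2 1.42.0, each HHT lysate left out, 1 genotype alone, only the libraries compared and a replicate block. Leaving out the filter could change nothing, as all 13973 genes passed it. Added after seeing the data were each HHT replicate number alone and limma 3.58.1 on log2(rescaled TPM + 1). Input, medium and heavy of 1 replicate number share a lysate per the labels, so the numbers pair fractions; correlations of their deviations were 0.01 to 0.35. Equal numbers in WT and KO are not said to share anything.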

Additional observations from a re-analysis of the deposited data

How the results depend on the processing

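Heavy HHT against vehicle kept its count of members within 1.5 times under every setting tried. The gap between pore-forming and cytosolic medians (input 0.71, medium 0.77, heavy 1.79) varied with the HHT lysate. For WT HHT replicate 2 it lay more than 1 SD lower each time (input 0.397, medium 0.414, heavy 1.507). KO HHT replicate 2 gave 0.519 (input), 0.557 (medium) and 1.793 (heavy). The input count of 19 fell to 11 with total counts, 8 with WT alone, 0 with KO alone, 7 with only the libraries compared, 7 with HHT replicate 2 alone and 1 in limma, was 50 with HHT replicate 1 alone, and ran from 1 to 29 with 1 HHT lysate left out. In medium 47 fell to 10 with KO alone. For medium to input under HHT, 20 became 10 with WT alone, 5 with KO alone and 32 with HHT replicate 2 alone, and 6 to 20 with 1 lysate left out; in vehicle 3 became 0 with WT alone, 0 with KO alone and 1 in limma, and 3 to 6 with 1 lysate left out, which is done on the HHT side. Their difference gave 3, then 0 with WT alone, 0 with KO alone, 5 and 11 with HHT replicate 1 or 2 alone, 5 in limma, and 0 to 3 with 1 lysate left out. Heavy to input in vehicle gave 12, then 4 with WT alone, 5 with KO alone, 23 in limma and 36 with total counts (1 higher, 35 lower, against 3 and 9; RLE gave 4 and 5). Under HHT total counts gave 36 higher and 16 lower against 46 and 8. The drug difference of heavy to input gave 32, then 11 with WT alone, 13 with KO alone and 51 in limma.

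With a replicate block, medium to input gave 32 members under HHT, 12 in vehicle and 5 for their difference, and KO against WT in heavy, where the numbers are only shared (deviations correlated at 0.323 in input, 0.165 in medium and 0.00332 in heavy), gave 3 (Kcnma1 0.37, Kcnt2 0.78 and Kcnj6 0.56) against 0. The block weakened no named call. Under total counts the values that reversed were Kcnip2 heavy to input under HHT (-0.014) and Kcnab1 heavy to input in vehicle (-0.049). That scaling moved the median of all genes to -0.11 in input, -0.28 and -0.41 for heavy to input under HHT and in vehicle, and 0.16 for their difference. In limma it lay between -0.24 and 0.31. The cause of these shifts was not tested. Fits on only the libraries compared could not be made for vehicle ratios, which leave no residual degrees of freedom. Totals of 6226237 to 13834652 counts limit members under 5 CPM.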
